A study of Mus musculus with 8 samples.

Results

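The immediate early response genes described here were Egr1, Egr2, Egr3, Nr4a1, Klf4, Klf6, Myc, Ier2, Ier3 and Ier5, 10 of the 54146 genes listed in each library. They were chosen by gene symbol, and all 10 were found in all 8 libraries. The RNA came from cortical astrocytes of C57BL/6 mouse pups at postnatal days 2 to 5, grown in primary culture, and 4 groups had 2 biological replicates each. Control KD astrocytes carried a lentiviral non-silencing shRNA and GSTM1 KD astrocytes a lentiviral shRNA against Gstm1, both under puromycin selection, and each was kept at the basal level or given 50 ng/ml TNF-α for 6 h. Every group was therefore infected, selected with puromycin, passaged and depleted of CD11b-positive cells, and no uninfected astrocytes were among the 8 libraries. The knockdown was carried by the whole culture, so a group is a pool of infected cells and not a clone.

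Immediate early genes are transcribed within minutes of a stimulus by factors that are already in the cell, such as serum response factor with its ELK cofactors, CREB and NF-κB, and need no new protein synthesis. Many of their transcripts are short-lived, and several encode transcription factors that pass the signal to later genes. EGR proteins, KLF proteins, NR4A1 and MYC bind DNA, whereas the IER genes encode small proteins linked to growth, survival and stress. In astrocytes, growth factors, cytokines and injury are known to induce genes of this class. A single time after TNF-α was sampled here, so an early rise that had passed by then was not measured.

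The gene models showed a shared compact form that the choice by symbol had not used. In GENCODE M21 (GRCm38), 9 of the 10 genes spanned 10000 bases or less, against 35.2% of 21762 protein-coding genes, and Nr4a1 was the exception at 20527 bases. Their median span was 5243 bases with 2 exons, beside 17570 bases and 6 exons over protein-coding genes. Ier3, the shortest, occupied 1240 bases at chr17:35821684-35822923, and Ier2 and Ier5 had 1 exon each. The AU-rich word ATTTA, a core of elements that mark unstable transcripts, occurred in the longest annotated 3′ UTR of 9 of the 10 genes, all but Ier2, and of 65.7% of the 21123 genes with such a region. Its longer form TATTTAT occurred 4 times in Ier3 and 2 times in Klf6 and in none of the other 8, against a share of 27.5% of all genes. No other annotated gene overlapped any of the 10, on either strand.

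Promoter windows of RefSeq (GRCm38.p6), from 250 bases before to 50 after the start site, were at hand for 6 of the 10 genes, namely Egr2 with 5 windows and Nr4a1, Klf4, Klf6, Ier3 and Ier5 with 1 each. Egr1, Egr3, Myc and Ier2 had no entry. Both strands were searched for the CArG box of serum response factor, the κB site of NF-κB, the CREB core TGACG, the EGR word GCGNGGGCG and the MYC word CACGTG. These were present in 1.63%, 4.51%, 20.8%, 5.55% and 7.15% of 32851 windows of 300 bases, and the GC box word GGGCGG, which can overlap them, in 35.7%. The full CREB word TGACGTCA, the AP-1 word TGANTCA and TATAAA, at 1.79%, 7.81% and 13.6%, were not in the windows of these 6 genes. The stretches before the start site are shown for Ier3, which had the highest level after TNF-α, and for Klf4 and Nr4a1, which fell in GSTM1 KD at the basal level. Capitals mark κB sites, TGACG, GCGNGGGCG and CACGTG on either strand. The sequences run 5′ to 3′ along the gene and hold no annotated exon. Those of Ier3 and Klf4 lie before the gene's first annotated exon, whereas that of Nr4a1 lies before a start site inside the annotated span of the gene.

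Ier3, chr17:35821463-35821683, plus strand: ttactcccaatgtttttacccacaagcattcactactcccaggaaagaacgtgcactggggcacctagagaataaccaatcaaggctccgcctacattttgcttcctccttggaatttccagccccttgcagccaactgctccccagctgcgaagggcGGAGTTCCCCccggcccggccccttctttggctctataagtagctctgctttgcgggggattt

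Klf4, chr4:55532476-55532725, minus strand: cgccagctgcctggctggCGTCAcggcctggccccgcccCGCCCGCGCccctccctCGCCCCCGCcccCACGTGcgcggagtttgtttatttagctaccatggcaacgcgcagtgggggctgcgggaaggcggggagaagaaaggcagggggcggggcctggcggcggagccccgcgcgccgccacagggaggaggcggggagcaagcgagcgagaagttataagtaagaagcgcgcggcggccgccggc

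Nr4a1, chr15:101266596-101266845, plus strand: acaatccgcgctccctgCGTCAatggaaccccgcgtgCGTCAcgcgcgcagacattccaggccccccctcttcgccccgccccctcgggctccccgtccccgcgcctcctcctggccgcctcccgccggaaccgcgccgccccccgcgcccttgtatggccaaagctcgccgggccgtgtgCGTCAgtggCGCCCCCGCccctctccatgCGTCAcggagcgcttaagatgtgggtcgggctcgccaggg

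The Ier3 window held 1 κB site that began 92 bases before the start site and shared its first bases with a GGGCGG. The Klf4 window held 1 TGACG, 2 matches of the EGR word and 1 CACGTG. The Nr4a1 window held 4 TGACG cores and 1 EGR word. A κB match there lay across the start site, so only its first bases are in the stretch shown, and these are not in capitals. CArG boxes were found only in Egr2 windows among the 6 genes. Both sites are shown with 10 bases on each side and the box in capitals.

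Egr2, chr10:67537484-67537513, plus strand: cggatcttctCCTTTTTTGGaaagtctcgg

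Egr2, chr10:67537787-67537816, plus strand: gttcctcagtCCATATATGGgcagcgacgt

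Each Egr2 box began 72 bases before an annotated start site. Klf6 and Ier5 held none of the CArG box, κB site, TGACG or EGR words, and Klf6 held 1 CACGTG. A match describes these windows alone and says nothing of binding.

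The expected counts summed to between 17349682 and 34434615 per library, and TMM factors ran from 0.958 to 1.03. Replicates of a group differed by more than sampling noise, by 12.8 to 50.9 times the variance of counting. Gstm1 was at 230 and 377 CPM (read counts scaled to TMM-adjusted library size) in control KD and 29.0 and 31.3 CPM in GSTM1 KD without TNF-α, and at 209 and 390 against 24.3 and 23.3 CPM after TNF-α, so each library labelled GSTM1 KD was below each labelled control KD. All 8 astrocyte markers checked were above 1 TPM (RSEM's transcript abundance per length) in each library. Their summed level was 1560 and 3710 TPM in control KD and 3560 and 5600 TPM in GSTM1 KD without TNF-α, and 1560 and 3580 against 3420 and 5300 TPM after TNF-α. Gfap contributed 706 and 2210 against 2330 and 4180 TPM at the basal level. S100b, another astrocyte marker, fell in GSTM1 KD (edgeR log2 fold change −1.44, SE 0.234, adjusted p = 0.0269 at the basal level). Of 8 microglial markers, 2 or 3 were above 1 TPM in each library, and Aif1, a defining one, was at 0 to 0.31 TPM. Csf1r and Itgam, also of that list, were highest in control KD replicate 1, with 55 and 61 reads without and 63 and 35 reads with TNF-α, against at most 20 and 8 reads in any other library. Oligodendrocyte lineage markers, led by Olig1 and Olig2, summed to 533 and 596 against 441 and 423 TPM without TNF-α and to 448 and 479 against 352 and 340 TPM after TNF-α. Olig2 fell in GSTM1 KD in both states (log2 fold change −0.85, edgeR adjusted p = 0.0251 without TNF-α, and −1.14, adjusted p = 0.0101 with it). Among the libraries given TNF-α, Olig1 was lower in GSTM1 KD than in control KD (−0.44, adjusted p = 0.0497). Neuronal, proliferation, and fibroblast or pericyte markers summed to 276 to 371, 152 to 287 and 60.8 to 145 TPM over the 8 libraries. Of 6 neuronal markers, 3 were above 1 TPM in each library, namely Tubb3, Map2 and Stmn2. The others, Rbfox3, Snap25 and Syt1, were at most 0.41, 0.19 and 0.49 TPM. Of the fibroblast or pericyte markers, Col1a2 fell in GSTM1 KD in both states (log2 fold change −1.13, adjusted p = 0.0352 without TNF-α, and −0.99, adjusted p = 0.025 with it). Among the libraries given TNF-α, Pdgfrb was higher in GSTM1 KD than in control KD (0.81, adjusted p = 0.0337). TNF-α itself lowered Pdgfrb in control KD (−1.28, edgeR adjusted p = 0.0278), and its estimate in GSTM1 KD was −0.91 (adjusted p = 0.0928). Of 4 choroid plexus markers 2 were tested, of which Folr1 was higher in GSTM1 KD (log2 fold change 2.67, SE 0.595, adjusted p = 0.0476 without TNF-α) and Otx2 was not called (−0.50, SE 0.340, adjusted p = 0.359). Their sums were 2.22 to 4.23 TPM in control KD and 5.34 to 10.6 TPM in GSTM1 KD, and endothelial markers summed to 1.59 to 3.2 TPM with Cldn5 at 0 throughout. In bulk RNA, fewer cells of a type and less RNA per cell cannot be told apart.

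Levels per length differed widely among the 10 genes. In control KD at the basal level the order of mean TPM was Ier3 at 103 ± 69.9 (SD, n = 2), Klf6 at 93.1 ± 21.2, Ier5 at 85.1 ± 0.884, Myc at 54.2 ± 20.2, Ier2 at 24.6 ± 3.15, Klf4 at 23.8 ± 7.55, Egr1 at 22.2 ± 3.44, Nr4a1 at 13.0 ± 3.80, Egr2 at 4.39 ± 0.926 and Egr3 at 0.28 ± 0.0566. The replicate ranges of Ier3, Klf6 and Ier5 overlapped, as did those of neighbours among Ier2, Klf4 and Egr1, so these were not separated. In GSTM1 KD at the basal level Klf6 (55.3 ± 8.75 TPM), Ier3 (50.2 ± 23.0) and Ier5 (45.4 ± 0.912) again led with no separation of Klf6 from Ier3 or of Ier3 from Ier5. Egr1 followed at 33.7 ± 6.19 TPM, with a range that held those of Ier2 and Myc, so it was not separated from either, whereas Ier2 and Myc lay apart. The wide ranges of Ier3 also overlapped that of Egr1 there and that of Myc in control KD. After TNF-α, Ier3 stood apart from every other gene of the group, at 312 ± 45.4 TPM in control KD and 136 ± 16.3 TPM in GSTM1 KD, with Klf6 next at 102 ± 26.6 and 58.9 ± 4.89 TPM. Egr3 was the lowest in all 4 groups, with mean levels between 0.28 and 0.835 TPM.

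**Figure D1:**
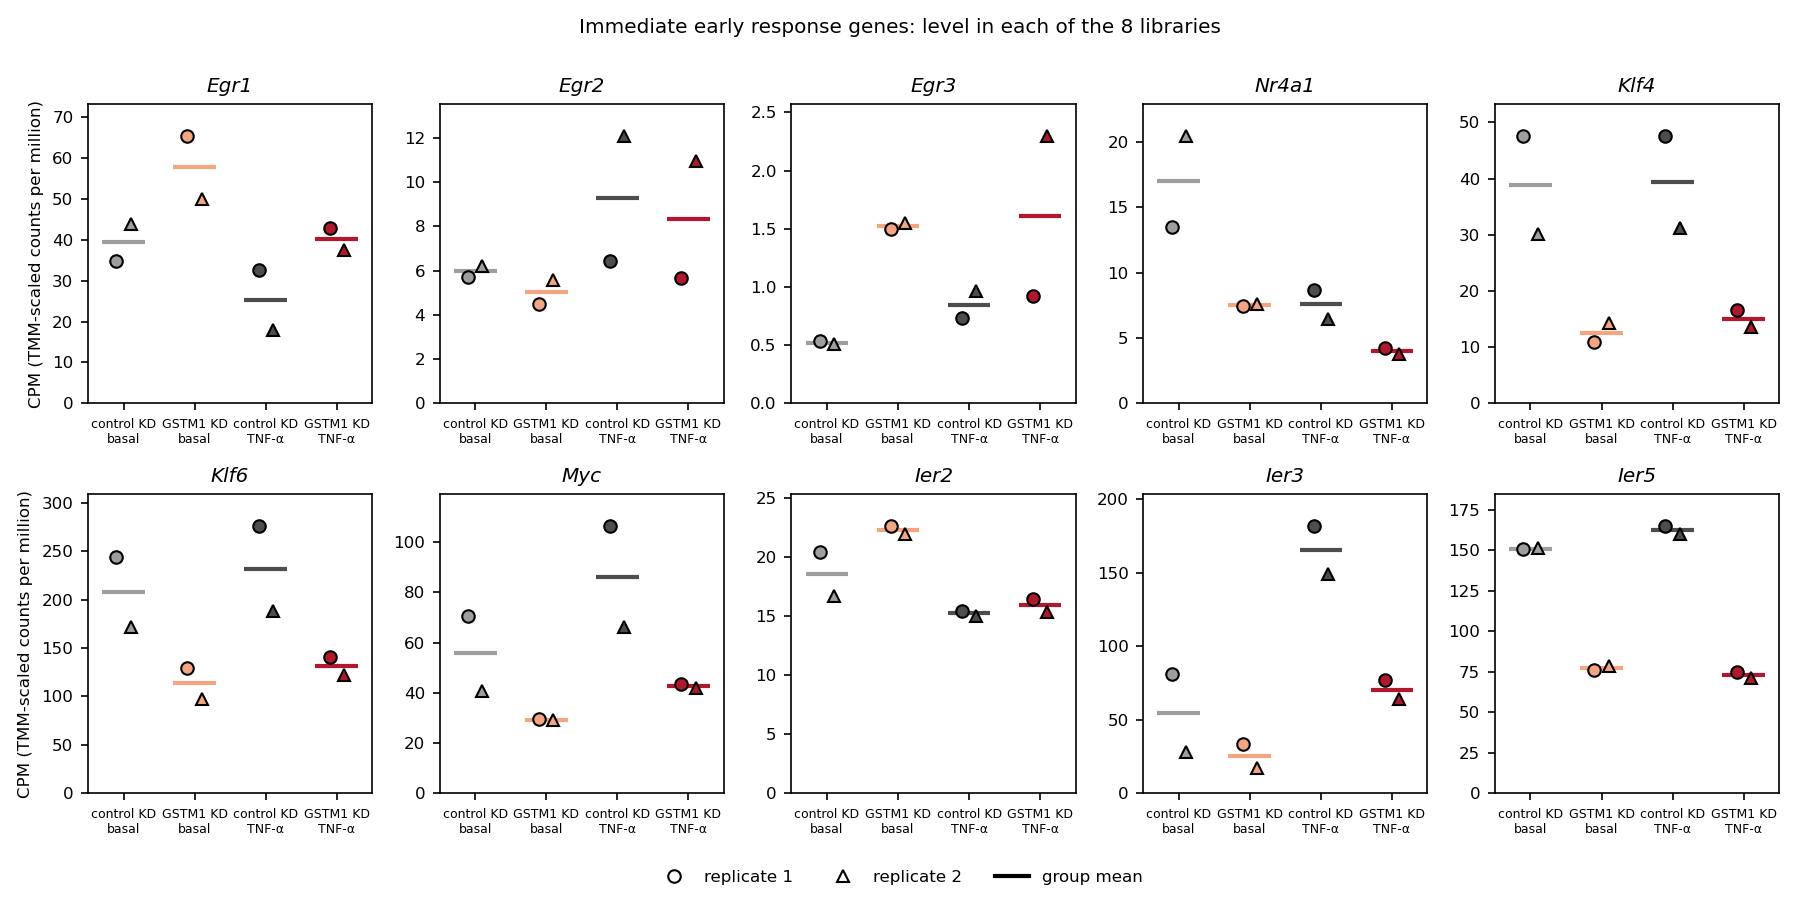
CPM of each of the 10 genes (y axis, linear from 0, one scale per gene) in the 4 groups. Circles are replicate 1, triangles replicate 2 and lines group means. Ier5 lay at 151 to 165 CPM in the 4 control KD libraries and at 71.2 to 78.6 CPM in the 4 GSTM1 KD libraries, and Ier3 was highest in control KD after TNF-α.

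The first question was which of these genes differed between GSTM1 KD and control KD astrocytes in the absence of TNF-α. At the basal level Klf4, Nr4a1 and Ier5 fell in GSTM1 KD and Egr3, a scarce transcript, rose. These 3 lower and 1 higher of 10 stood beside 5.62% lower and 4.6% higher of 14899 genes tested. The groups did not overlap in CPM for 6 of the 10 genes in the lower direction and 3 in the higher, beside 31.2% and 32.3% of all genes tested, and Ier3 alone overlapped. The median log2 fold change was −0.90 over the 10 genes and −0.00203 over all genes tested.

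After TNF-α the same comparison gave Klf4, Klf6, Myc, Ier3 and Ier5 lower in GSTM1 KD and none higher. These 5 lower and 0 higher of 10 stood beside 8.92% lower and 7.26% higher of 14593 genes tested by edgeR. At an unadjusted p under 0.05, 6 of the 10 passed after TNF-α, beside 36.2% of all genes, and 7 in the basal state, beside 31.6%. DESeq2 called 6 of the 10 lower after TNF-α and 5 lower in the basal state, beside 20.4% and 18.2% of the genes to which it gave an adjusted p, in either direction. The groups did not overlap for 6 genes in the lower direction and 1, Egr1, in the higher, beside 32.0% and 34.6% of all genes. The median log2 fold change was again −0.90, against −0.0106 over all genes tested. The lower groups in the basal state and after TNF-α come from different libraries of the same 2 knockdowns, and the labels do not say whether they share cultures.

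The EGR genes encode zinc finger factors that bind GC-rich sites. Egr1 (chr18:34859823-34864984), the most abundant of them, was at 34.9 and 43.9 CPM in control KD and 65.4 and 50.1 CPM in GSTM1 KD without TNF-α, and at 32.6 and 18 against 42.9 and 37.4 CPM after TNF-α. Both GSTM1 KD libraries were above both control KD libraries in each state. The log2 fold changes were 0.55 (SE 0.180, edgeR adjusted p = 0.104) and 0.63 (SE 0.283, adjusted p = 0.172), neither of which passed. The second was 1.14 without control KD replicate 1 after TNF-α (adjusted p = 0.00436) and 0.28 without replicate 2.

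Egr2 (chr10:67535475-67542188), known for its part in myelinating glia, was at 5.74 and 6.21 against 4.50 and 5.56 CPM at the basal level. After TNF-α it was at 6.46 and 12.1 CPM in control KD and 5.68 and 11 CPM in GSTM1 KD. The replicates differed more than the knockdowns did after TNF-α, where replicate 2 was 1.87 times replicate 1 in control KD and 1.93 times it in GSTM1 KD. Its log2 fold changes were −0.25 (SE 0.227, edgeR adjusted p = 0.490) and −0.18 (SE 0.424, adjusted p = 0.794).

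Egr3 (chr14:70077203-70082614), a relative of Egr1 with few reads here, drew 19 and 13 reads in unstimulated control KD and 35 and 31 in unstimulated GSTM1 KD. These were 0.537 and 0.508 against 1.5 and 1.55 CPM, so the groups lay apart. It rose with a log2 fold change of 1.53 (SE 0.346, edgeR adjusted p = 0.0488). The call lay close to the threshold and was not kept by DESeq2 (adjusted p = 0.0946), with effective lengths as offsets (0.0737) or in a fit of all 8 libraries (0.0623). After TNF-α the counts were 17 and 16 against 20 and 40, and the difference of 0.89 (SE 0.541, adjusted p = 0.286) did not pass. The effective length of Egr3 was 1268 bases in control KD replicate 2 after TNF-α and 2825 to 3707 bases in the other 7 libraries, and with lengths as offsets that difference was 0.091 (adjusted p = 0.946).

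Nr4a1 (chr15:101254269-101274795) encodes an orphan nuclear receptor that is rapidly induced by growth factors and cAMP, and its promoter window held the 4 TGACG cores shown above. It was at 13.5 and 20.4 CPM in control KD and 7.46 and 7.56 CPM in GSTM1 KD at the basal level. It fell 2.26-fold (log2 fold change −1.17, SE 0.242, edgeR adjusted p = 0.0412). After TNF-α it was at 8.70 and 6.43 against 4.20 and 3.79 CPM, with a log2 difference of −0.95 (SE 0.256) that passed in DESeq2 (adjusted p = 0.0418) and not in edgeR (0.0598). Both GSTM1 KD libraries were below both control KD libraries in each state.

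Klf4 (chr4:55527143-55532466), a zinc finger factor that is known from reprogramming of somatic cells, had the largest estimated decrease of the 10 genes in both states. It was at 47.5 and 30.1 CPM in control KD and 10.9 and 14.3 CPM in GSTM1 KD, and at 47.6 and 31.2 against 16.5 and 13.6 CPM after TNF-α. No GSTM1 KD library came near the lowest control KD library. It fell 3.09-fold at the basal level (log2 fold change −1.63, SE 0.266, edgeR adjusted p = 0.0270) and 2.67-fold after TNF-α (−1.42, SE 0.241, adjusted p = 0.0229).

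Klf6 (chr13:5861482-5870394), a related zinc finger factor with a role in tissue injury, was at 244 and 171 CPM in control KD and 129 and 97.5 CPM in GSTM1 KD at the basal level. The groups lay apart, but the log2 difference of −0.88 (SE 0.220) did not pass in edgeR (adjusted p = 0.0626) and passed in DESeq2 (0.00169). After TNF-α Klf6 was at 276 and 188 against 140 and 122 CPM. It fell 1.81-fold there (−0.85, SE 0.205, adjusted p = 0.0463 in edgeR), a call that a fit of all 8 libraries did not keep (0.0538).

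Myc (chr15:61985391-61990374), which encodes a basic helix-loop-helix factor that promotes growth and ribosome synthesis, was at 70.7 and 40.8 CPM in control KD and 29.5 and 29.1 CPM in GSTM1 KD at the basal level. The control replicates differed 1.73-fold and the GSTM1 KD replicates 1.02-fold. The log2 difference of −0.93 (SE 0.261) did not pass in edgeR (adjusted p = 0.0775) and passed in DESeq2 (0.00576). After TNF-α it was at 106 and 66.2 against 43.7 and 41.8 CPM and fell 2.06-fold (−1.04, SE 0.232, edgeR adjusted p = 0.0401).

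Ier5 (chr1:155096361-155099636), whose product interacts with protein phosphatase 2A and the heat shock factor HSF1, differed by at most 1.05-fold between the replicates of any group. It was at 151 and 152 CPM in control KD and 76.1 and 78.6 CPM in GSTM1 KD without TNF-α, and at 165 and 160 against 74.6 and 71.2 CPM after TNF-α. The 4 GSTM1 KD libraries were all lower than the 4 control KD libraries, with a wide gap. It fell 1.96-fold at the basal level (log2 fold change −0.97, SE 0.0988, edgeR adjusted p = 0.0160) and 2.27-fold after TNF-α (−1.18, SE 0.0947, adjusted p = 0.00981).

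Ier3 (chr17:35821684-35822923), a stress-responsive gene that NF-κB is known to induce, was at 80.9 and 27.8 CPM in control KD and 33.5 and 16.9 CPM in GSTM1 KD at the basal level. The control replicates differed 2.91-fold and the groups overlapped, and the log2 difference of −1.11 (SE 0.549, edgeR adjusted p = 0.227) did not pass. With the replicate number as a block it was −1.01 and passed (edgeR adjusted p = 0.000119), but the labels do not say what that number marks. After TNF-α it was at 182 and 149 against 76.7 and 63.8 CPM, with both GSTM1 KD libraries well below control KD. It fell 2.40-fold there (−1.26, SE 0.153, adjusted p = 0.0129), although not in the fit of all 8 libraries (0.112), which also takes in the basal replicates.

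Ier2 (chr8:84661331-84662852), a single-exon gene for a nuclear protein induced by growth factors, was at 20.4 and 16.7 against 22.6 and 21.9 CPM without TNF-α and at 15.5 and 15 against 16.5 and 15.3 CPM after TNF-α. The log2 differences were 0.26 (SE 0.156, edgeR adjusted p = 0.303) and 0.04 (SE 0.144, adjusted p = 0.879). The 95% interval of the second, −0.32 to 0.40, did not reach the estimates for Klf4, Ier3, Ier5 or Myc.

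**Figure D2:**
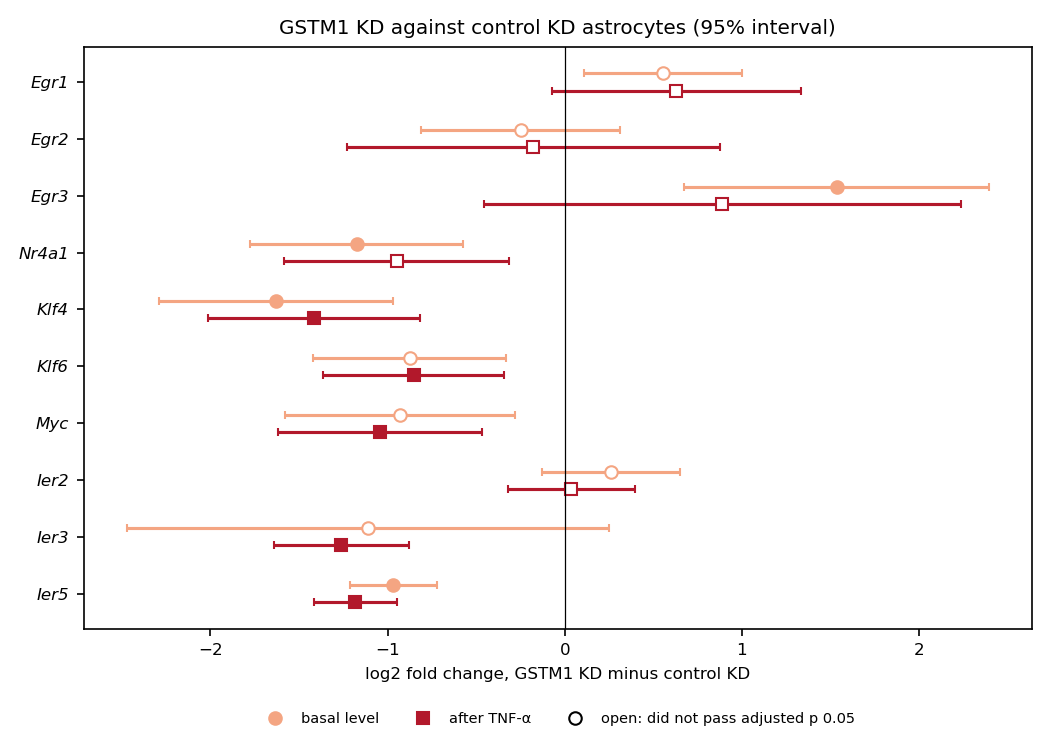
log2 fold change of GSTM1 KD minus control KD (x axis) for each gene (y axis), in the basal state (circles) and after TNF-α (squares), with 95% intervals from edgeR. Filled symbols passed an adjusted p of 0.05. Klf4 and Ier5 are filled on the lower side in both states, and Egr3 is the only filled symbol on the higher side, at the basal level.

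At the lowest and highest sums of each state, the summed astrocyte markers ran opposite to Klf6, Myc and Ier3. Between these, control KD replicate 2 and GSTM1 KD replicate 1 kept that order only for Ier3 at the basal level. Gfap alone made up 4180 of 5600 TPM without and 3830 of 5300 TPM with TNF-α in GSTM1 KD replicate 2. In each state Gfap, Slc1a2, Aldh1l1 and Gja1 had their highest TPM in that library. Aqp4, Slc1a3, Sox9 and S100b had theirs in control KD replicate 2. By edgeR 0 of the 8 markers were called higher in GSTM1 KD in either state. Control KD replicate 1, with the lowest summed astrocyte level in each state (1560 TPM), had the highest CPM of Klf6, Myc and Ier3 of its state. GSTM1 KD replicate 2, with the highest sums (5600 and 5300 TPM), had the lowest CPM of these 3 genes in its state. Ier5, Nr4a1 and Klf4 had the same order after TNF-α, highest in control KD replicate 1 and lowest in GSTM1 KD replicate 2, but not in the basal state. There Ier5 was at 151 and 152 CPM in the control KD replicates, Nr4a1 was higher in control KD replicate 2 (20.4 against 13.5 CPM) and Klf4 was higher in GSTM1 KD replicate 2 (14.3 against 10.9 CPM). Control KD replicate 2 and GSTM1 KD replicate 1 had sums close to each other, 3710 and 3560 TPM at the basal level and 3580 and 3420 TPM after TNF-α. Between this pair of libraries at the basal level Klf4 was at 30.1 and 10.9, Klf6 at 171 and 129, Myc at 40.8 and 29.5, Nr4a1 at 20.4 and 7.46, and Ier5 at 152 and 76.1 CPM, all lower in GSTM1 KD, whereas Ier3 was at 27.8 and 33.5 CPM. After TNF-α the same pair gave 31.2 and 16.5 CPM for Klf4, 188 and 140 for Klf6, 66.2 and 43.7 for Myc, 149 and 76.7 for Ier3, and 160 and 74.6 for Ier5. The pair was picked after the sums were seen and holds 1 library of each knockdown, so no test was made. The part of culture makeup in these differences was not tested, and the oligodendrocyte lineage sums were also lower in GSTM1 KD and reads of Csf1r and Itgam highest in control KD replicate 1.

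The number of calls moved with single libraries, for these 10 genes and for all genes alike. Without GSTM1 KD replicate 1 or 2, 0 of the 10 genes passed in edgeR in the basal state, beside 0.00643% and 0.0193% of all genes, and 0 after TNF-α, beside 0.0% and 0.616%. In these fits the lone library is assumed to vary like the other group. When control KD replicate 2 was left out, 8 of the 10 passed in the basal state, with Egr1, Klf6, Myc and Ier3 added, beside 34.2% of all genes, and 6 after TNF-α, beside 32.9%. When control KD replicate 1 was left out, 5 passed in the basal state, with Klf6 and Myc in and Egr3 out, beside 14.3%, and 6 after TNF-α, beside 18.3%. Ier5 had adjusted p values from 0.000245 to 0.151 over these 4 fits in the basal state and from 0.000514 to 0.0691 after TNF-α, with log2 differences of −0.9987 to −0.9439 and −1.205 to −1.144. The estimates of Ier3 in the basal state ran from −1.69 without control KD replicate 2 to −0.14 without control KD replicate 1. Between the same fits those of Myc ran from −1.28 to −0.48 and those of Klf6 from −1.12 to −0.60. After TNF-α Ier3 ran from −1.39 to −1.10, Myc from −1.34 to −0.65 and Klf6 from −1.10 to −0.54. These too were the fits without control KD replicate 2 and 1. Klf4, Klf6, Myc, Nr4a1, Ier3 and Ier5 had estimates below 0 and Egr1 and Egr3 above 0 in all 8 fits.

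**Figure D3:**
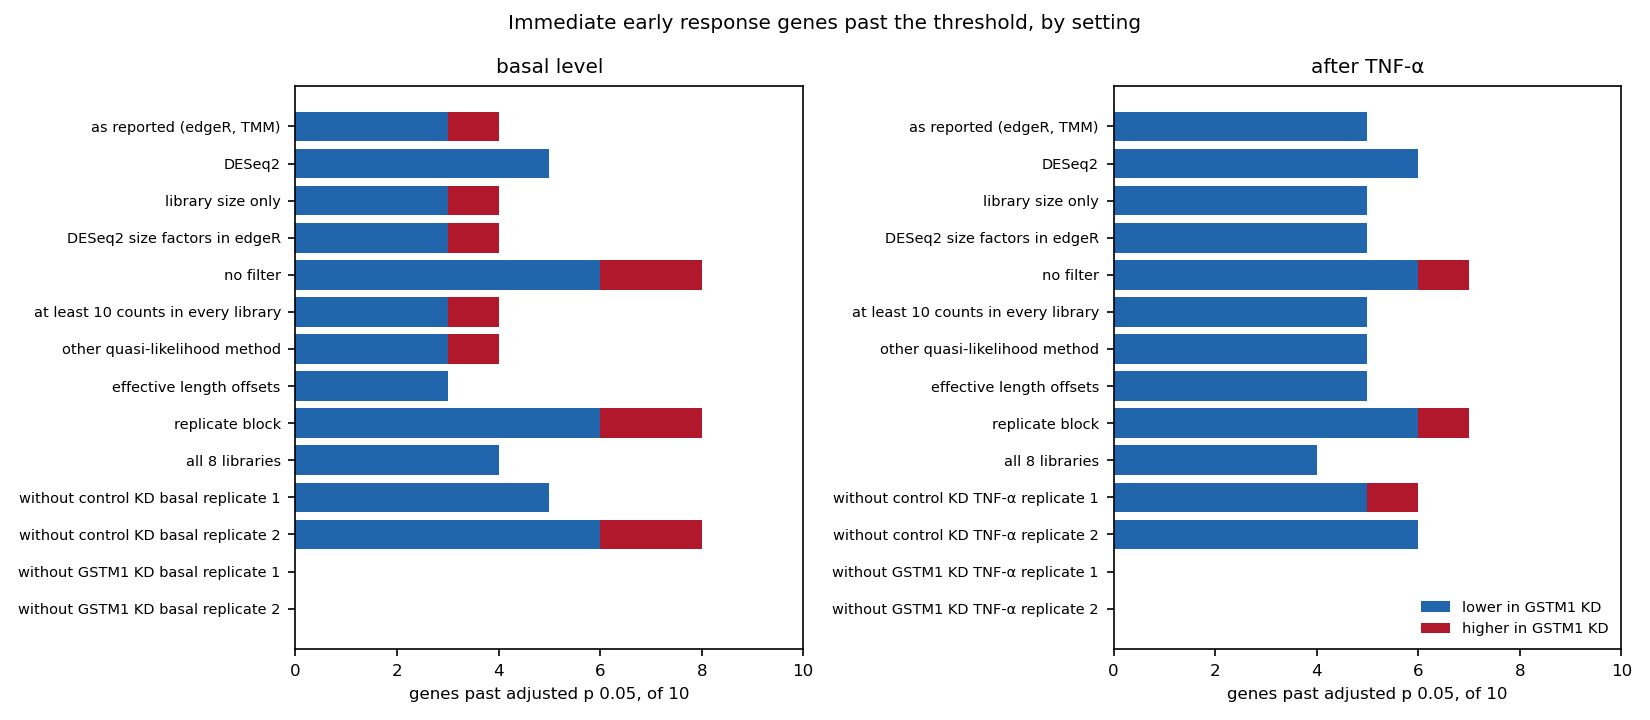
Number of the 10 genes past an adjusted p of 0.05 (x axis) under each setting (y axis), in the basal state (left) and after TNF-α (right). Blue is lower and red higher in GSTM1 KD. The count was 4 and 5 as reported, and fell to 0 wherever a GSTM1 KD library was left out.

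The second question was how TNF-α changed these genes within each knockdown. By edgeR, 0 of the 10 passed in control KD and 0 in GSTM1 KD, beside 2.1% higher and 0.528% lower of 15332 genes in control KD and 2.35% higher and 0.294% lower in GSTM1 KD. At an unadjusted p under 0.05, 2 passed in control KD (Ier3 and Nr4a1) and 3 in GSTM1 KD (Ier2, Ier3 and Nr4a1), beside 12.5% and 10.9% of all genes. DESeq2 called 1, Nr4a1, in control KD and 0 in GSTM1 KD, beside 4.58% and 3.77% of its genes. Signals were detectable in the same libraries, since 10 of 57 other immediate early genes tested rose in control KD and 9 rose in GSTM1 KD.

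Ier3 had the largest estimated increase of the 10, from 80.9 and 27.8 to 182 and 149 CPM in control KD and from 33.5 and 16.9 to 76.7 and 63.8 CPM in GSTM1 KD. Both libraries after TNF-α were above both basal libraries in each knockdown. The log2 differences were 1.60 (SE 0.488, edgeR adjusted p = 0.192) and 1.48 (SE 0.499, adjusted p = 0.282), with 95% intervals of 0.45 to 2.75 and 0.30 to 2.65. Without control KD basal replicate 1 the first was 2.57 (adjusted p = 0.0362) and without replicate 2 it was 1.04, and the second was 2.06 and 1.07 without GSTM1 KD basal replicate 1 and 2. The wide errors go with the 2.91-fold and 1.98-fold gaps between basal replicates.

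Nr4a1 was lower after TNF-α, at 8.70 and 6.43 CPM from 13.5 and 20.4 in control KD and at 4.20 and 3.79 from 7.46 and 7.56 in GSTM1 KD. In both knockdowns the libraries after TNF-α lay below the basal ones. The log2 differences were −1.16 (SE 0.241, edgeR adjusted p = 0.0587, DESeq2 adjusted p = 0.00275) and −0.91 (SE 0.255, adjusted p = 0.169 and 0.0725).

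Among the other factors, Myc had estimated log2 differences of 0.63 (SE 0.285) and 0.54 (SE 0.293), Egr1 of −0.63 (SE 0.275) and −0.52 (SE 0.272), and Egr2 of 0.63 (SE 0.382) and 0.72 (SE 0.391), with edgeR adjusted p values from 0.423 to 0.650. Klf4 and Klf6, which differed by knockdown, had small estimates of 0.02 and 0.26 and of 0.16 and 0.21. Their 95% intervals ran from −0.63 to 0.68 and from −0.43 to 0.96 for Klf4, so neither a loss nor a gain of moderate size could be set aside. Ier2 was lower in all libraries after TNF-α than in any basal library of its knockdown, with differences of −0.28 (SE 0.130) and −0.48 (SE 0.130, adjusted p = 0.15). Ier5 had differences of 0.10 (SE 0.0755) and −0.08 (SE 0.0765), with the narrowest intervals of the 10, −0.07 to 0.28 and −0.26 to 0.10.

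**Figure D4:**
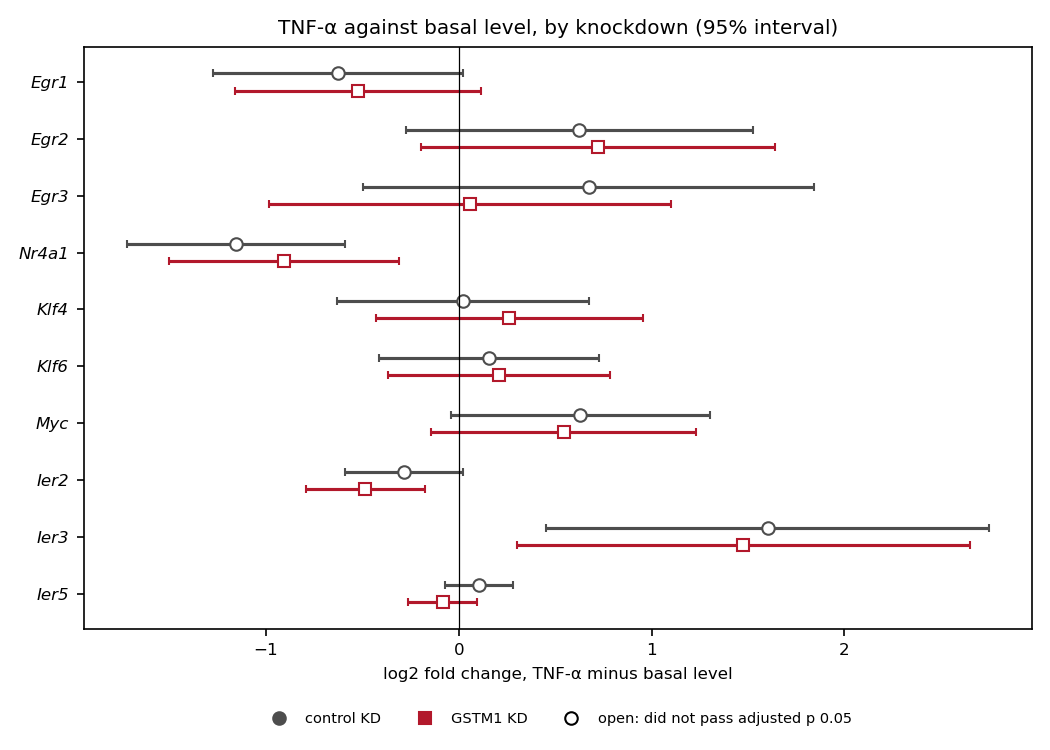
log2 fold change of TNF-α minus basal level (x axis) for each gene (y axis) in control KD (circles) and GSTM1 KD (squares), with 95% intervals from edgeR. All symbols are open, since none passed an adjusted p of 0.05. The interval of Ier3 lies above 0 and that of Nr4a1 below 0 in both knockdowns.

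The difference between the 2 TNF-α responses was tested as the interaction of knockdown and stimulation. By edgeR, 0 of the 10 genes and 0.0% of 15332 genes passed, with 0 of the 10 and 295 of all genes (1.92%) at an unadjusted p under 0.05, and DESeq2 called 0 of the 10 and 27 genes in all (0.157%). The estimates for the 10 genes ran from −0.62 (Egr3, SE 0.666) to 0.25 (Nr4a1, SE 0.348) on the log2 scale. For Ier3 the difference was −0.13 with a 95% interval of −1.74 to 1.49, and for Ier5 −0.19 with an interval of −0.44 to 0.06. The interval of Ier3 was the widest of the 10 genes and that of Ier5 the narrowest.

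Genes of the same pathways were examined by lists chosen by function. Of 58 other immediate early genes, 57 were tested at the basal level, where 2 were higher and 10 lower in GSTM1 KD, and 56 after TNF-α, where 5 were higher and 7 lower. Over all genes tested the shares were 4.6% higher and 5.62% lower without TNF-α and 7.26% and 8.92% with it, and the counts of the lists that follow stand beside the same shares. Rgs2, a regulator of G protein signalling, rose at the basal level from 20.8 and 19.9 to 61.8 and 61.8 CPM (log2 fold change 1.60, SE 0.109, edgeR adjusted p = 0.0132), and Atf3, a stress-induced factor, from 9.98 and 9.89 to 17.5 and 19.8 CPM (0.91, SE 0.159, adjusted p = 0.0299). Sgk1, a serum-induced kinase, fell from 207 and 153 to 77.4 and 83.4 CPM (−1.16, SE 0.168, adjusted p = 0.0228), and Dusp1, a MAP kinase phosphatase, from 125 and 154 to 79.9 and 80.1 CPM (−0.80, SE 0.131, adjusted p = 0.0270). After TNF-α Ptgs2, the inducible cyclooxygenase, was at 330 and 338 against 130 and 130 CPM (−1.39, SE 0.0968, adjusted p = 0.00981), while Rgs2, Atf3 and Dusp1 were called in the same directions as before. The median log2 fold change of the list was −0.12 in the basal state and −0.23 after TNF-α.

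In response to TNF-α, Nfkbia, which encodes the inhibitor IκBα, rose from 46.7 and 37.0 to 394 and 439 CPM in control KD (log2 fold change 3.31, SE 0.162, edgeR adjusted p = 0.000239). In GSTM1 KD it rose from 25.8 and 32.3 to 396 and 417 CPM (3.81, SE 0.167, adjusted p = 0.000255). Irf1, an interferon-linked factor, rose by 3.11 (SE 0.144) and 3.22 (SE 0.145). Rgs2 fell after TNF-α in GSTM1 KD (−1.17, SE 0.196, adjusted p = 0.0264), and in control KD its estimate was −1.001 (SE 0.204, adjusted p = 0.0551). The difference of these responses was −0.17 (SE 0.281) and was not called.

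Of serum response factor and its cofactors with the CREB genes, 0 of 8 were called at the basal level and 2 were lower in GSTM1 KD than in control KD after TNF-α. These were Srf itself, at 43.9 and 52.1 against 34.4 and 32.7 CPM (log2 fold change −0.54, SE 0.124, edgeR adjusted p = 0.0423), and its coactivator Mkl1, at 56.6 and 58.9 against 38.5 and 40.1 CPM (−0.58, SE 0.0972, adjusted p = 0.0223). Mkl1 also rose with TNF-α in control KD, from 42.6 and 43.1 CPM (0.43, SE 0.0801, adjusted p = 0.041). Of the EGR co-repressors Nab1 and Nab2 and the family member Egr4, 3 were tested between knockdowns at the basal level and 2, without Egr4, after TNF-α, and none of those tested was called. Nab2 fell after TNF-α in GSTM1 KD from 83.8 and 79.1 to 40.3 and 48.5 CPM (−0.88, SE 0.148, adjusted p = 0.0272). In control KD Nab2 was at 62.0 and 68.9 CPM without and 34.2 and 44.3 CPM with TNF-α (−0.74, SE 0.148, adjusted p = 0.0517). Nr4a2, a close relative of Nr4a1, had the opposite direction and was higher in GSTM1 KD after TNF-α, at 10.4 and 10.4 against 5.85 and 4.87 CPM (0.93, SE 0.205, adjusted p = 0.0396). The other relative, Nr4a3, was not called, with estimates of −0.61 (SE 0.224, adjusted p = 0.115) after TNF-α and −0.34 (SE 0.713, adjusted p = 0.775) without it.

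Among 12 other KLF genes tested, 2 were higher and 3 lower in GSTM1 KD in the basal state and 2 lower after TNF-α. Klf11, a TGF-β-inducible repressor, fell in both states, from 20.7 and 19.0 to 10.4 and 11.5 CPM in the basal state (log2 fold change −0.85, SE 0.156, edgeR adjusted p = 0.0326) and by 1.13 on the log2 scale after TNF-α (SE 0.166, adjusted p = 0.0178). Klf13 and Klf12 rose at the basal level by 0.79 (SE 0.148) and 1.19 (SE 0.262), and Klf7 fell by 0.67 (SE 0.140). Klf16 was lower in GSTM1 KD after TNF-α (−0.63, SE 0.112), and Klf5 fell with TNF-α in control KD by 0.53 (SE 0.102, adjusted p = 0.0471).

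Of MYC relatives and partners, 1 of 12 tested at the basal level was higher and 1 lower, and 1 and 1 of 11 after TNF-α. Mxd1 and Mxd4, both of which compete with MYC for its partner MAX, were called in opposite directions in each state. Mxd1 rose from 6.33 and 6.92 to 11.6 and 12 CPM in the basal state (log2 fold change 0.83, SE 0.177, edgeR adjusted p = 0.0434), and Mxd4 fell from 49.3 and 68.0 to 31.1 and 32.2 CPM (−0.89, SE 0.173, adjusted p = 0.0374). Max was at −0.03 (SE 0.115, adjusted p = 0.873). Of 30 genes known as MYC targets in ribosome synthesis and growth, 0 were higher and 2 lower at the basal level, and 0 higher and 7 lower after TNF-α, with medians of −0.41 and −0.43. Nolc1, a nucleolar protein, was at 103 and 83.0 against 51.9 and 46.4 CPM at the basal level (−0.92, SE 0.142, adjusted p = 0.0250), and Hspd1, a mitochondrial chaperonin, at 496 and 401 against 275 and 251 CPM (−0.77, SE 0.148, adjusted p = 0.0355). Both fell again after TNF-α, by 0.98 and 0.78 on the log2 scale.

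Across the 8 libraries, Klf4, Klf6, Myc, Ier3 and Ier5 varied together to different degrees, given as a description over 8 libraries in 4 groups. Pearson's r of log2(CPM + 1) was 0.937 between Klf4 and Ier5, 0.931 between Klf4 and Klf6, 0.923 between Klf6 and Myc, and 0.885 between Myc and Ier3, but 0.602 between Klf4 and Ier3 and 0.51 between Ier3 and Ier5. Egr1 ran against most of them, with r of −0.750 to Ier3 and −0.698 to Myc, and Egr3 had r of −0.811 to Klf4. Among all 15331 other genes that passed the filter, the most alike were Gnl3, itself in the list of MYC targets, for Myc (r = 0.996), Gga3 for Klf6 (0.996), Tmem81 for Klf4 (0.993), Qsox2 for Ier5 (0.997), Aen for Ier3 (0.989) and Phlpp1 for Nr4a1 (0.984). For Egr1, Egr2, Egr3 and Ier2 they were Wdr54 (0.971), Cdhr4 (0.966), Unc5d (0.976) and the annotated transcript RP23-162D3.2 (0.976). These highest values of many pairs over 4 groups describe the pattern and carry no test.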

How the data were processed

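Libraries were made by the authors with a directional kit. The submitters' processing notes name STAR (version 2.5.4b), RSEM (version 1.3.0) and GRCm38. Strand use in counting is not given in the sources used here. Expected counts, which RSEM estimates per gene and which the authors deposited, were rounded to whole numbers. The deposited TPM values, scaled by the authors per length and library, were used for levels between genes without a test, and the deposited effective lengths (other values, in bases) for an alternative with offsets.

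All 8 libraries were used. Differences were tested in edgeR (version 4.0.16, R version 4.3.3) by its quasi-likelihood method, after TMM scaling and after removal of low genes by filterByExpr with the groups given. P-values were adjusted by Benjamini-Hochberg over all genes tested, with a threshold of 0.05. The knockdowns were compared on the 4 libraries of each state, and TNF-α responses and their difference on all 8 with 1 coefficient per group. With 2 libraries against 2 an exact permutation test cannot go below p = 0.333 (two-sided). DESeq2 (version 1.42.0), other scalings, filters, a replicate block and leaving out each library were alternatives. The replicates are called biological by the study, without saying whether they came from separate cultures, so p-values measure the spread between these libraries. The 10 genes, the other gene lists and the tests were chosen with earlier results of these data known. All 10 genes are named, and of each other list the 2 genes with the smallest p past the threshold in each direction whose groups do not overlap. Figures were drawn with matplotlib (version 3.10.9).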

Additional observations from a re-analysis of the deposited data

Results flagged for a closer look

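For Ier5 the estimated TNF-α responses pointed in opposite directions, since both control KD libraries after TNF-α (165 and 160 CPM) were above both basal ones (151 and 152 CPM), while both GSTM1 KD libraries after TNF-α (74.6 and 71.2 CPM) were below theirs (76.1 and 78.6 CPM). The difference of the responses was −0.1888 on the log2 scale (SE 0.107, 95% interval −0.44 to 0.06), with an edgeR p of 0.121 and an adjusted p of 1.0.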

How the results depend on the processing

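Of the 10 genes, 8 passed at the basal level without the filter (beside 16.0% of all genes) and 8 with a replicate block (31.6%), against 4 as reported (10.2%), and 0 to 8 when 1 library was left out. After TNF-α the counts were 7 with the replicate block (29.5% of all genes; Egr1 and Nr4a1 added, adjusted p = 0.022 and 0.0257), 7 without the filter (18.8%) and 4 with all 8 libraries (20.3%), against 5 (16.2%), and 0 to 6 with 1 library left out. For the TNF-α response, DESeq2 called 1 gene in control KD, and no filter called 4 in each knockdown (Ier3 and Myc higher, Egr1 and Nr4a1 lower, beside 4.74% and 3.97% of all genes). The replicate block called 2 in each (Ier3 higher in both, Nr4a1 lower in control KD, Ier2 lower in GSTM1 KD, beside 6.44% and 5.27%), the 4 libraries of GSTM1 KD alone 2 (Myc higher, Nr4a1 lower, beside 4.68%), and fits without 1 library 0 to 2 in control KD. With the replicate block Egr1, Klf6 and Myc also passed at the basal level (adjusted p = 0.0104, 3.88e-05 and 0.000736), and Ier3 was lower in basal GSTM1 KD (−1.01, edgeR adjusted p = 0.000119, other alternatives without leaving out a library from 1.32e-10 to 0.4) and its TNF-α response had adjusted p values of 0.0165 and 0.0326. Same-numbered libraries deviated together over 15332 genes (r from 0.248 to 0.731), but with 2 replicates this does not show what the number marks. The cause of these shifts was not tested.
Signs turned only for estimates that did not pass. These were Klf4 for the response in control KD (−0.008019 with library size only, −0.00317 without the filter), Egr3 for that in GSTM1 KD (−0.1034 with effective lengths, −0.003036 with the block) and Klf6 for the difference of responses (−0.01801 with effective lengths). Without 1 library, Egr2 ran from −0.7194 to 0.3318 and Ier2 from −0.006993 to 0.09009 after TNF-α, the control KD response of Klf4 from −0.3202 to 0.3946 and of Klf6 from −0.1496 to 0.4381, and the GSTM1 KD response of Egr3 from −0.7185 to 0.5864. The difference of responses ran from −0.2684 to 0.6077 for Egr1, −0.4545 to 0.591 for Egr2, −0.08967 to 0.5182 for Nr4a1, −0.1324 to 0.5852 for Klf4, −0.2314 to 0.3592 for Klf6, −0.5408 to 0.3062 for Myc and −1.098 to 0.4522 for Ier3.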
